A study of Mus musculus with 4 samples.

Results

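Trp53 encodes the transcription factor p53, and 9 of its established target genes, Mdm2, Ccng1, Zmat3, Phlda3, Aen, Eda2r, Trp53inp1, Sesn2 and Bax, were followed in muscle stem cells (MuSCs) of overloaded muscle. The 10 genes were taken by gene name from a table of 19353 genes, and all 10 were present once. The study asked how MuSCs behave in muscle that grows under load without substantial damage. MuSCs came from mice carrying Pax7-CreERT2 and Rosa-YFP, in which tamoxifen lets a Cre recombinase made in Pax7-expressing cells switch on yellow fluorescent protein (YFP), so that the cells were selected by their Pax7 history. All libraries carry both alleles, and the labels and methods give surgery as the difference between the groups, with a skin incision in sham and a cut through the distal tendons of the gastrocnemius and soleus (tenotomy) in the overloaded group, 4 days before the plantaris was taken. The age of the mice is not given in the sources used here, nor whether libraries of 1 group came from different mice, so p-values measure the spread between these libraries, which may be technical. Other experiments of the study took the contralateral muscle as sham. Whether sham and overloaded libraries shared mice is not given, and the main test treats them as unpaired.

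There were 2 libraries per group, each made by CEL-Seq2 from a tube of 100 YFP-positive cells. CEL-Seq2 tags each transcript at its poly(A) end with a random sequence called a unique molecular identifier (UMI), and the count of a gene is its number of distinct UMIs. Depth was 269683 and 260488 UMIs in sham against 387955 and 483528 UMIs in overloaded libraries. Of 10 markers of MuSCs, all 10 were counted in every library, among them Pax7 with 118 and 107 UMIs in sham and 108 and 137 in overloaded MuSCs. Relative to other transcripts 5 of these markers were lower past an adjusted p of 0.1 (edgeR), Pax7 among them, and 2 (Itga7 and Cdh15) were higher, where 32.9% of all genes with enough counts in both groups, as all 10 had, were lower and 14.9% higher, though Itga7 lost its call without 1 library and Cdh15 without any of 3. In such bulk samples a smaller share of cells expressing a gene and less RNA per cell cannot be told apart.

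The p53 protein is held at a low level by Mdm2, a ubiquitin ligase that marks it for destruction and is itself a p53 target, so that both form a feedback loop. When DNA damage or other stress blocks this loop, p53 accumulates and switches on genes for cell cycle arrest, apoptosis, DNA repair and metabolic control. Much of the regulation of p53 acts on the protein and is not seen in the level of its mRNA. In MuSCs, p53 is known as a factor that affects the choice between return to quiescence, differentiation and death.

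In overloaded MuSCs, 7 of the 10 genes were higher, 1 was lower, 1 was tested and did not pass the threshold, and 1 was too scarce to be tested. Ccng1 rose 4.74-fold, Zmat3 4.60-fold, Phlda3 3.74-fold, Bax 3.08-fold, Trp53inp1 2.58-fold, Eda2r 2.40-fold and Mdm2 1.52-fold. Sesn2 fell to 0.242 of its sham level, while Trp53 itself, at 0.890 of its sham level, did not pass the threshold. The test was edgeR's quasi-likelihood test over 7228 genes with TMM scaling, so that levels are relative within a library, at an adjusted p (Benjamini-Hochberg) of 0.1. Of all genes tested 52.1% passed this threshold in either direction. In these libraries 25.8% of all genes tested were higher and 26.3% lower past that threshold, and the median log2 fold change of all genes was 0.051, against 1.37 for the 9 of the 10 genes that were tested.

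In CPM, both overloaded libraries lay above both sham libraries in 7 of the 10 genes, as in 37.5% of all genes tested, and below them in Trp53 and Sesn2, as in 35.4%, while Aen overlapped. For Trp53 the nearest libraries were almost level, at 254 CPM in sham and 253 CPM in overloaded MuSCs. The filter on low counts bears on how these numbers can be read. Zmat3, Phlda3 and Bax passed it only through the overloaded libraries, and among genes that did so 62.9% were higher past the threshold. Sesn2 passed only through the sham libraries, a class in which 75.3% of genes were lower. The other 5 tested genes (Trp53, Mdm2, Ccng1, Eda2r and Trp53inp1) had enough counts in both groups, and 4 of these 5 were higher, against 14.9% of all genes with enough counts in both groups.

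**Figure D1:**
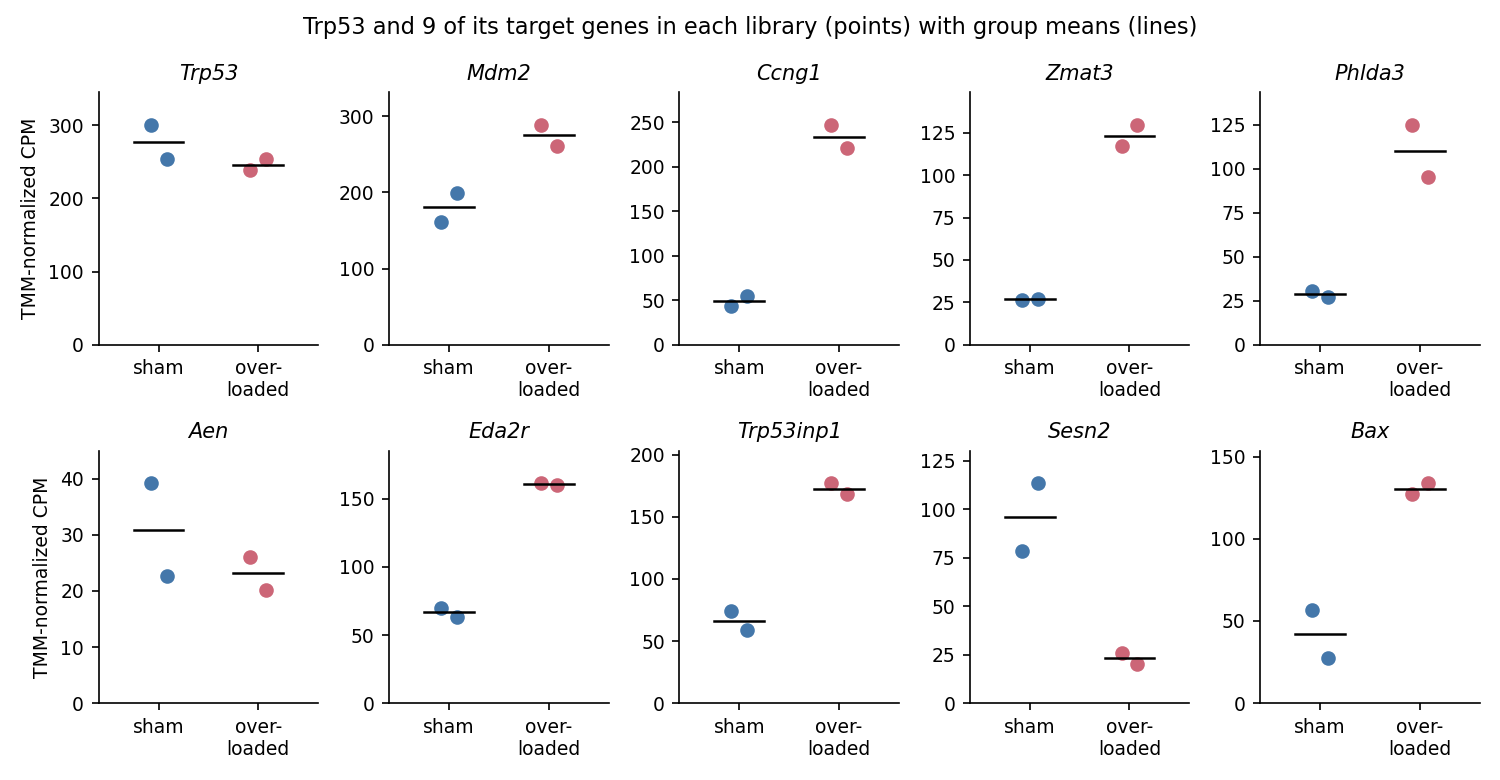
TMM-normalized CPM (each vertical axis from 0) of Trp53 and 9 target genes in the 2 sham and 2 overloaded libraries, with points for libraries and lines for group means. In 7 genes both overloaded libraries lie above both sham libraries, and in Trp53 (barely) and Sesn2 both lie below.

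Trp53 (ENSMUSG00000059552) lies on chromosome 11 (69580359 to 69591873, plus strand) of GRCm38. Sham libraries held 69 and 56 Trp53 UMIs, and overloaded libraries 92 and 125. The larger overloaded libraries thus held more Trp53 UMIs, but per 1000000 UMIs (CPM) its level was 277 ± 33.0 CPM in sham and 246 ± 9.84 CPM in overloaded MuSCs (SD, n = 2 each). The log2 fold change was -0.17 (standard error, SE, 0.18, 95% confidence interval, CI, -0.55 to 0.22, edgeR adjusted p = 0.48). Its sign turned with the scale, to 0.11 with library sizes alone, 0.25 under offsets for abundance, fitted so that fold changes no longer vary with how abundant a gene is, and 0.79 for UMIs per tube (adjusted p = 0.012 from edgeR, with a median of 1.01 over all genes on that scale).

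Mdm2 (ENSMUSG00000020184), the ubiquitin ligase that opposes p53, lies on chromosome 10 (117688875 to 117710758, minus strand). Its UMIs numbered 37 and 44 in sham against 111 and 129 in overloaded MuSCs. Both overloaded libraries were above both sham libraries, with levels of 180.2 ± 27.1 CPM in sham and 275 ± 19.4 CPM in overloaded MuSCs (SD, n = 2 each). The log2 fold change of 0.61 (SE 0.20, 95% CI 0.19 to 1.02, edgeR adjusted p = 0.019) was the smallest of the 7 rises. It was not past the threshold without sham replicate 1 (log2 fold change 0.43, adjusted p = 0.27 from edgeR) or with DESeq2 (0.62, adjusted p = 0.17). With a library left out, its group has 1 library, which is assumed to vary as the other group does.

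Ccng1 (ENSMUSG00000020326) encodes cyclin G1, which brings the phosphatase PP2A to Mdm2 and so takes part in the same feedback. The gene lies on chromosome 11 (40748552 to 40755311, minus strand). Ccng1 had 10 and 12 UMIs in sham against 95 and 109 in overloaded MuSCs. In CPM too, both overloaded libraries lay above both sham libraries, as in 37.5% of all genes tested. Its level went from 48.9 ± 7.66 to 234 ± 18.6 CPM (SD, n = 2 each). The log2 fold change of 2.24 (SE 0.27, edgeR adjusted p = 6.0e-06) had a 95% confidence interval of 1.68 to 2.81, which does not overlap that of Mdm2. The difference between these genes was not tested.

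Zmat3 (ENSMUSG00000027663) encodes a zinc finger protein that binds RNA and acts on splicing and mRNA stability, and lies on chromosome 3 (32334792 to 32366014, minus strand). It had 6 UMIs in each sham library against 45 and 64 in the overloaded libraries. Its level of 26.6 ± 0.752 CPM in sham and 123 ± 8.91 CPM in overloaded MuSCs (SD, n = 2 each) gave a log2 fold change of 2.20 (SE 0.36, edgeR adjusted p = 1.4e-04). Phlda3 (ENSMUSG00000041801, plus strand of chromosome 1, 135766119 to 135769136) encodes a small protein with a pleckstrin homology domain that keeps the kinase Akt from the membrane. It had 7 and 6 UMIs in sham against 48 and 47 in overloaded MuSCs, levels of 28.8 ± 2.33 and 110.0 ± 20.9 CPM (SD, n = 2 each). In both genes every overloaded library was above every sham library, and the log2 fold change of Phlda3 was 1.90 (SE 0.38, edgeR adjusted p = 7.6e-04).

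Bax, Eda2r and Aen belong to the apoptotic branch of the p53 response. Bax (ENSMUSG00000003873) encodes the protein that opens the outer mitochondrial membrane, and lies on chromosome 7 (45461697 to 45466898, minus strand). Sham libraries held 13 and 6 Bax UMIs, and overloaded libraries 49 and 66. The level of Bax rose from 41.9 ± 20.8 to 131 ± 4.42 CPM (SD, n = 2 each), or 1.62 on the log2 scale (SE 0.34, edgeR adjusted p = 0.0010). The size of this rise depended on the sham libraries, with a log2 fold change of 2.22 without sham replicate 1 and 1.16 without sham replicate 2, both past the threshold. Bax shares its strand with another annotated gene, Gm45808, and Sesn2 with Gm12981, although neither reaches the 3′ end of the gene it overlaps. The other 8 genes overlap no annotated gene.

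Eda2r (ENSMUSG00000034457) encodes a receptor of the tumour necrosis factor receptor family that binds the A2 form of ectodysplasin, and lies on chromosome X (97333840 to 97377216, minus strand). Sham libraries held 16 and 14 Eda2r UMIs, and the deeper overloaded libraries 62 and 79, and the groups did not overlap in CPM either. The replicates lay close together, at 66.5 ± 4.4 CPM in sham and 161 ± 0.867 CPM in overloaded MuSCs (SD, n = 2 each), giving a log2 fold change of 1.26 (SE 0.27, edgeR adjusted p = 0.0011). Aen (ENSMUSG00000030609), on chromosome 7 (78895854 to 78911209, plus strand), encodes a nuclease that takes part in DNA fragmentation during apoptosis. It had 9 and 5 UMIs in sham and 10 in each overloaded library, and did not pass the filter on low counts. Its levels of 30.9 ± 11.7 and 23.1 ± 4.07 CPM (SD, n = 2 each) overlapped between the groups. With no filter its log2 fold change was -0.36 (SE 0.53, edgeR adjusted p = 0.74), and with the filter set at 10 counts in every library of a group it was -0.51 (SE 0.46, edgeR adjusted p = 0.42).

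Trp53inp1 (ENSMUSG00000028211), on chromosome 4 (11156431 to 11174379, plus strand), encodes a stress-induced protein that promotes p53 phosphorylation and autophagy. Its UMIs numbered 17 and 13 in sham against 68 and 83 in overloaded MuSCs, again without overlap in CPM. Levels of 66.4 ± 10.7 and 172 ± 6.17 CPM (SD, n = 2 each) gave a log2 fold change of 1.37 (SE 0.27, edgeR adjusted p = 5.7e-04). Sesn2 (ENSMUSG00000028893), on chromosome 4 (132492032 to 132510501, minus strand), encodes sestrin 2, a leucine sensor that restrains the kinase complex mTORC1. It went the other way, with 18 and 25 UMIs in sham and 10 in each overloaded library. Although the overloaded libraries were deeper, both held fewer Sesn2 UMIs than either sham library, and the level fell from 95.8 ± 24.7 to 23.1 ± 4.07 CPM (SD, n = 2 each). The log2 fold change was -2.05 (SE 0.39, 95% CI -2.87 to -1.23, edgeR adjusted p = 4.8e-04), and Sesn2 was also lower for UMIs per tube (-1.09, adjusted p = 0.042 from edgeR).

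A count taken relative to Trp53 in the same library needs no scaling factor. Per 100 Trp53 UMIs, Ccng1 had 14.5 and 21.4 UMIs in the sham libraries and 103 and 87.2 in the overloaded libraries. For Mdm2 the numbers were 53.6 and 78.6 in sham and 121 and 103 in overloaded MuSCs. Mdm2 UMIs were thus fewer than Trp53 UMIs in both sham libraries. In overloaded replicate 1 they were more numerous (111 against 92), while in overloaded replicate 2 the numbers were almost level (129 against 125). Zmat3 went from 8.70 and 10.7 to 48.9 and 51.2, and Sesn2 from 26.1 and 44.6 to 10.9 and 8. Aen overlapped between the groups on this scale too, with 13 and 8.93 in sham and 10.9 and 8 in overloaded MuSCs.

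**Figure D2:**
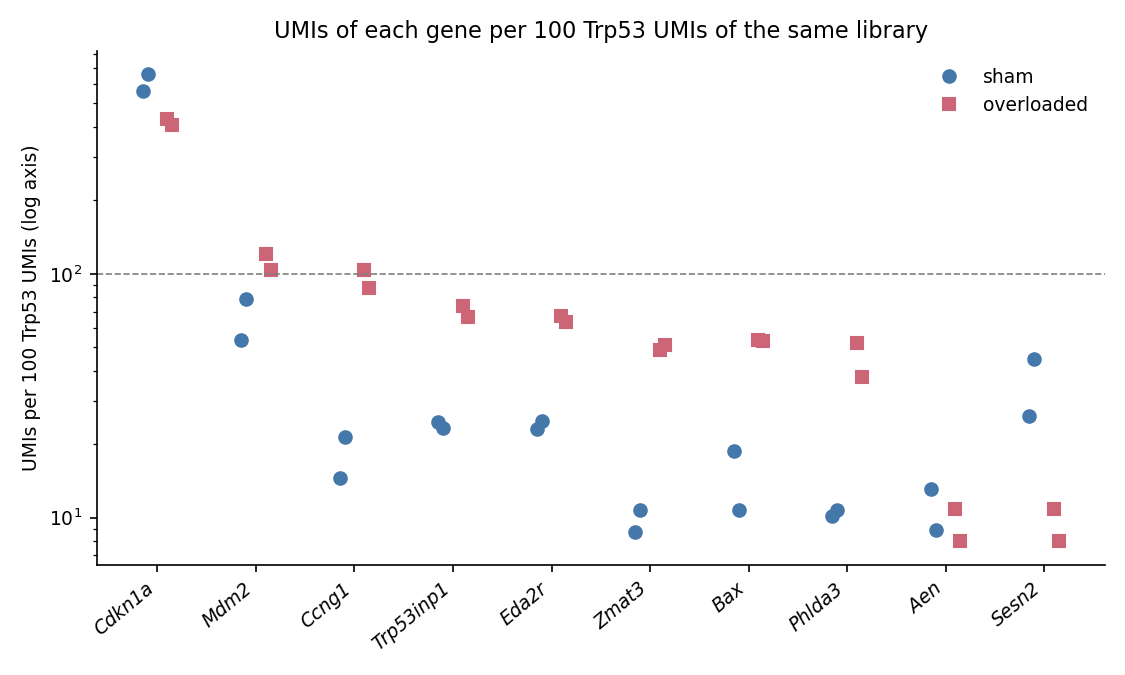
UMIs of each gene per 100 Trp53 UMIs of the same library (vertical log axis) in sham (circles) and overloaded (squares) libraries, with a dashed line at 100. Mdm2 went from below the line to 121 and 103, the latter almost at the line. Cdkn1a went down from 564 and 659 to 432 and 407, and Sesn2 went down from 26.1 and 44.6 to 10.9 and 8.

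Other p53 target genes moved in both directions. Of 36 further target genes listed from general knowledge, 34 were in the table and 25 had enough counts to be tested, of which 9 were higher, 9 were lower and 7 did not pass the threshold, against 25.8% higher and 26.3% lower of all genes tested. Of these 25 genes, 10 had passed the filter only through the overloaded libraries, and 8 of the 9 higher genes were among them, in a class where 62.9% of all genes were higher. All 9 lower genes had enough counts in both groups, where 32.9% of all genes were lower and 14.9% higher. The like numbers of higher and lower genes thus come from different filter classes. Over all 25, the median on the log2 scale was 0.16, and it was the same with Gtse1, which had no count in sham, set at its lower bound. Under offsets for abundance 4 were lower (Btg2, Ephx1, Fas and Gdf15), where 21.8% of all genes were lower, and for UMIs per tube 3 (Btg2, Fas and Gdf15), where 4.58% of all genes were. Fas and Gdf15 were named after their values were seen. Among the further targets 7 were higher under the offsets, where 21.3% of all genes were higher, and 15 for UMIs per tube, where 62% of all genes were.

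Cdkn1a, which encodes the cell cycle inhibitor p21 and is the best known target of p53, had 389 and 369 UMIs in sham against 397 and 509 in overloaded MuSCs. Its TMM-scaled level was 1682 ± 15.3 CPM in sham and 1031 ± 1.05 CPM in overloaded MuSCs (SD, n = 2 each), or -0.71 on the log2 scale (SE 0.15, edgeR adjusted p = 0.0014). The direction turned with the scale, to 0.39 under offsets for abundance (adjusted p = 0.015) and 0.26 for UMIs per tube (adjusted p = 0.12, both from edgeR). On none of these 3 scales did its log2 fold change reach those of Ccng1 or Zmat3, which were lowest at 2.20 and 2.05, respectively, under the offsets. Gtse1, whose product takes p53 out of the nucleus in G2 phase, had no count in sham and 17 and 28 in overloaded MuSCs. After TMM scaling Gtse1 was at least 7.69-fold higher when sham is set to 3 counts for the group as a whole (edgeR adjusted p = 1.1e-04).

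**Figure D3:**
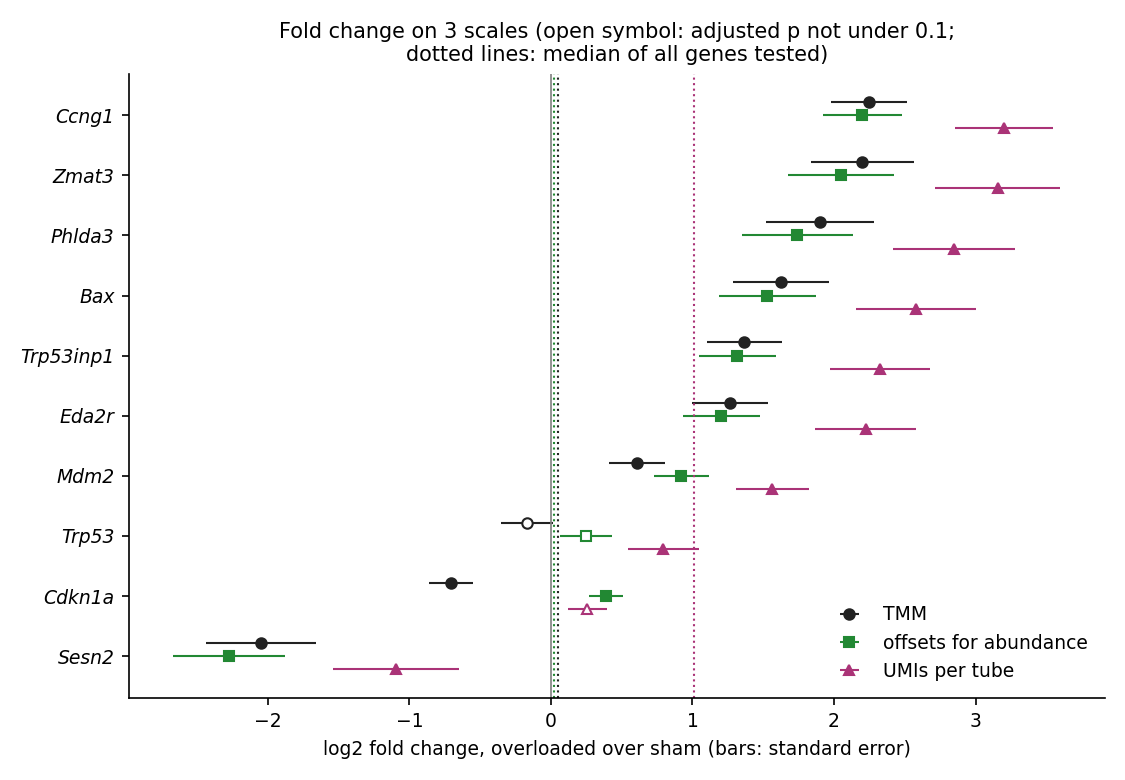
Log2 fold change of overloaded over sham (horizontal axis, bars for standard errors) for 9 tested genes and Cdkn1a, with TMM scaling (circles), offsets for abundance (squares) and UMIs per tube (triangles), where open symbols are not past an adjusted p of 0.1 and dotted lines are the medians of all genes. On each scale Ccng1, Zmat3, Phlda3, Bax, Trp53inp1, Eda2r and Mdm2 lie right of the median of that scale and Sesn2 left of it. Trp53 and Cdkn1a lie on either side of 0, depending on the scale.

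The risers included Ckap2, a spindle protein gene, with 3 and 2 UMIs in sham against 45 and 92 in overloaded MuSCs (log2 fold change 3.75, edgeR adjusted p = 1.0e-05), and Trp53i11, with 1 and 4 against 48 and 70 (3.55, edgeR adjusted p = 1.7e-05). Tnfrsf10b, which encodes a death receptor, was higher by 1.88 (edgeR adjusted p = 0.0079). Ak1, an adenylate kinase gene, was the only riser with enough counts in both groups, with 11 UMIs in each sham library against 55 and 117 (1.98, edgeR adjusted p = 1.5e-04). These 4 genes were named after their values were seen. The genes named next were taken for their abundance. The median log2 fold change was -0.74 among the 723 most abundant genes tested, where 5.81% were higher past the threshold, -0.28 among the next 723 (20.2% higher) and -0.09 among the 723 after those (25.3% higher).

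Among the most abundant of the further targets, Btg2, an antiproliferative gene that is also induced at once by many stimuli, fell from 231 and 211 UMIs to 134 and 152, a log2 fold change of -1.58 (edgeR adjusted p = 1.1e-06). Gadd45a, a growth arrest gene, was lower by -0.97 (adjusted p = 1.2e-04) and Ephx1, an epoxide hydrolase, by -1.08 (adjusted p = 6.8e-04). Ddit4, an inhibitor of mTORC1, was lower by -0.63 (adjusted p = 0.024) and Sat1, an enzyme of polyamine breakdown, by -0.49 (adjusted p = 0.043, all from edgeR). Plk2, a polo-like kinase, had a log2 fold change of -0.11 (edgeR adjusted p = 0.67). Of these, Btg2 and Ephx1 were also lower past the threshold under offsets for abundance, Gadd45a (-0.18) and Ddit4 (-0.38) were not, and Sat1 (0.04) and Plk2 (0.25) changed sign without passing it. For UMIs per tube Sat1 was higher by 0.47 (adjusted p = 0.092) and Plk2 by 0.86 (adjusted p = 0.012, both from edgeR). With DESeq2 neither Sat1 (adjusted p = 0.24) nor Ddit4 (adjusted p = 0.18) was past the threshold, and both lost their call in edgeR when either of 2 libraries was left out, as did Tnfrsf10b.

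Ccng1 and Cdkn1a went in opposite directions with TMM scaling. The promoter of Ccng1 and a promoter of Cdkn1a each hold a close match to the p53 response element. The element is built from a pair of like half-sites, each centred on C and G around a pair of A or T bases, and since it reads alike on both strands a single scan covers both. The search took the 300 bases around each annotated start, most of them upstream (RefSeq, GRCm38.p6), required the C and G of each centre and no gap between the half-sites, and counted mismatches elsewhere. Matches with at most 1 mismatch occurred in 0.067% of 32841 promoters. The sites are shown with 20 bases on either side, the 4-base centres of the half-sites in capitals.
Ccng1, chr11:40755442-40755501, minus strand, site beginning 195 bases upstream of the start: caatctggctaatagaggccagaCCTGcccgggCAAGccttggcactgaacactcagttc
Cdkn1a, chr17:29090908-29090967, plus strand, site beginning 51 bases upstream of a start: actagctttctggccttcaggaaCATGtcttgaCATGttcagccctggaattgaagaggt
At most 3 mismatches were found in 1.38% of all promoters. The promoter at another annotated start of Cdkn1a held no such site, its best window having 7 mismatches. Of the 10 genes, 8 had a promoter in the table, and besides Ccng1 the promoters of Trp53 and Aen held a site with 3 mismatches, shown here without flanks.
Trp53, chr11:69580284-69580303, plus strand: ggaCTTGcccttaCTTGtta
Aen, chr7:78895937-78895956, plus strand: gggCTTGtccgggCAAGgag
Trp53 and Aen were the genes without a call, and the promoters of Mdm2, Phlda3, Eda2r, Sesn2 and Bax held no such site within these 300 bases.

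Of 26 regulators and cofactors of p53 listed, 17 were tested with TMM scaling, of which 10 were lower, 0 were higher and 7 did not pass the threshold, with a median log2 fold change of -0.57. Of all genes tested 26.3% were lower, and 32.9% of those with enough counts in both groups, as 13 of these 17 had. At an unadjusted p under 0.05, 0 were higher too. DESeq2 tested 22 of them and had 0 higher and 7 lower, against 967 higher and 1215 lower of 10348 genes. Without a filter edgeR tested 24 and called 2 higher and 9 lower, against 2451 higher and 1803 lower of 19353 genes. Under offsets for abundance 2 were higher and 6 lower, against 21.3% higher and 21.8% lower of all genes. For UMIs per tube, a scale that moves all genes up together, 6 were higher and 2 lower, against 62% and 4.58% of all genes. Crebbp, an acetyltransferase that modifies p53, had 110 and 122 UMIs in sham and 121 and 110 in overloaded MuSCs, and was lower by -0.95 (edgeR adjusted p = 6.5e-04), but stood at -0.01 per tube (edgeR adjusted p = 0.98). Ube2d3, a ubiquitin-conjugating enzyme that works with Mdm2, was lower by -1.30 (adjusted p = 6.0e-05) and by -0.36 per tube (adjusted p = 0.089, both from edgeR). The ribosomal proteins Rpl5 and Rpl11, which bind Mdm2 when ribosome assembly is disturbed, were lower by -0.54 (adjusted p = 0.0099) and -1.0 (edgeR adjusted p = 1.7e-04), although Rpl5 was not past the threshold without sham replicate 1 (-0.47, adjusted p = 0.17 from edgeR) and was higher under offsets for abundance (0.50, adjusted p = 0.0028) and both have near-identical copies elsewhere in the genome that make their counts uncertain. Npm1, a nucleolar protein that binds both p53 and Mdm2 and also has such copies, stood at -0.21 (adjusted p = 0.34) and was higher under the offsets (0.61, adjusted p = 0.0014, both from edgeR).

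**Figure D4:**
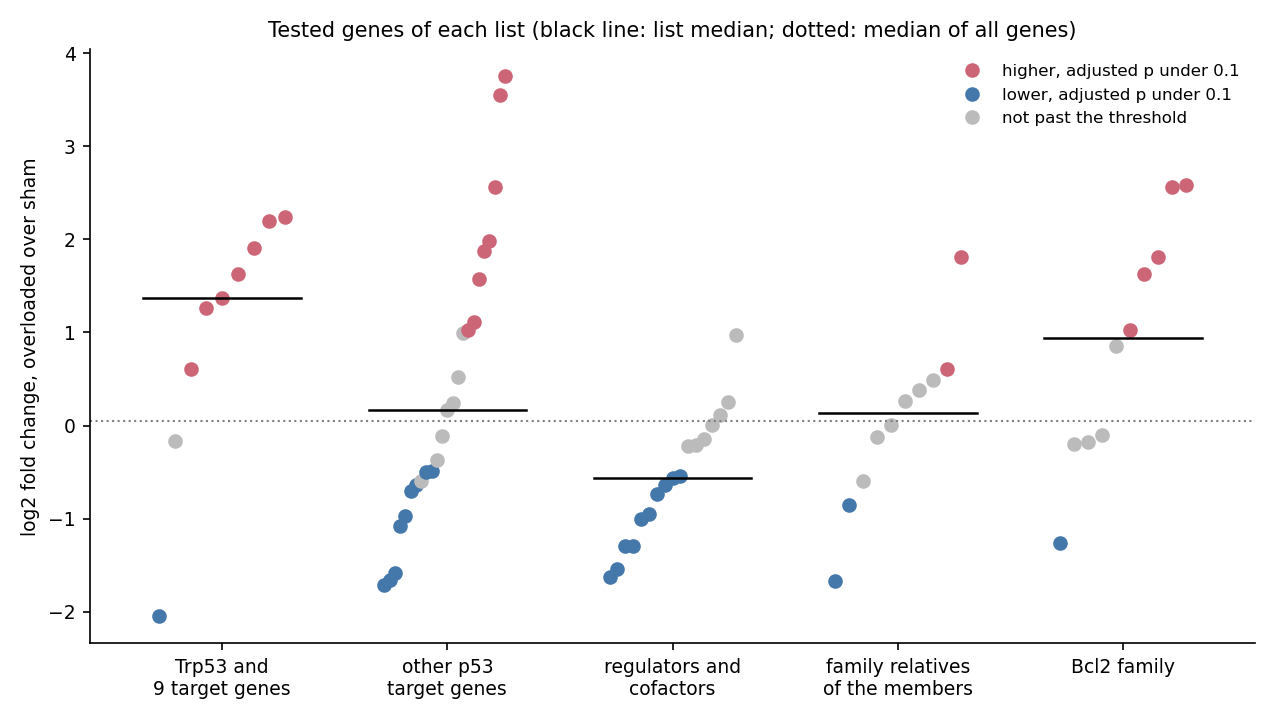
Log2 fold change of overloaded over sham (vertical axis, TMM scaling) for the tested genes of 5 lists, each point a gene, with black lines at list medians and a dotted line at the median of all genes, 0.051. Gtse1 is left out of the points because it had no count in sham. The medians are 1.37 for Trp53 and 9 target genes, 0.16 for other targets, -0.57 for regulators and cofactors, 0.13 for family relatives and 0.94 for the Bcl2 family. They include genes that passed the filter only through the overloaded libraries, where 62.9% of all genes were higher. Such genes were 3 of 9, 10 of 25, 3 of 17, 1 of 10 and 7 of 10, in that order. In the Bcl2 family, Mcl1 (-1.26), Bcl2l2 (-0.17) and Bcl2 (-0.11) had enough counts in both groups.

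Of 20 relatives of the 10 genes by protein family, 10 were tested, 2 of which were higher and 2 lower, with a median log2 fold change of 0.13. These counts are near the shares of all genes tested, 25.8% higher and 26.3% lower. Mdm4, the partner of Mdm2, had 33 and 34 UMIs in sham against 59 and 72 in overloaded MuSCs, a log2 fold change of 0.01 (edgeR adjusted p = 0.99). Ccng2, which encodes cyclin G2, was higher by 0.61 (adjusted p = 0.060), but not without sham replicate 2 (0.24, adjusted p = 0.59) or overloaded replicate 2 (0.43, adjusted p = 0.27, all from edgeR). Phlda1 was lower by -0.85 (edgeR adjusted p = 0.0010), and its log2 fold change was 0.09 per tube. Isg20, a relative of Aen, was lower by -1.67 (adjusted p = 0.0015), whereas Isg20l2 was at 0.26 (edgeR adjusted p = 0.46).
Sesn1 and Sesn3, the other sestrins, had log2 fold changes of -0.60 (adjusted p = 0.22) and -0.13 (edgeR adjusted p = 0.77), and neither passed the threshold. Trp53inp2 was at 0.39 (adjusted p = 0.22) and Zmat2 at 0.49 (edgeR adjusted p = 0.13). Bok, a relative of Bax, was higher by 1.81 (adjusted p = 0.038), but its sham counts were 5 and 0, and without sham replicate 2 it was not past the threshold (0.84, adjusted p = 0.39, both from edgeR), while without overloaded replicate 1 it did not pass the filter. For UMIs per tube 7 of the 10 relatives were higher and 0 lower, near the 62% of all genes that were higher on that scale. DESeq2 tested 13 of the relatives, of which 2 were lower and 0 higher, against 1215 lower and 967 higher of 10348 genes. Its adjusted p was 0.28 for Ccng2 and 0.47 for Bok. The differences between each gene and its relative were not tested.

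The Bcl2 family holds both guardians of and killers through the mitochondrial membrane. Of 17 genes listed, 10 were tested, of which 5 were higher and 1 lower, and 7 of the 10 had passed the filter only through the overloaded libraries. All 5 higher genes were among these 7, near the 62.9% higher of all such genes. Beside Bax, the p53 target Pmaip1, which encodes the BH3 protein Noxa, rose from 8 and 5 to 61 and 91 UMIs, or 2.56 on the log2 scale (SE 0.33, edgeR adjusted p = 1.4e-05). Bcl2l1, which encodes Bcl-xL, an inhibitor of apoptosis, rose to a like extent, from 5 and 3 to 40 and 55 UMIs, with a log2 fold change of 2.58 (SE 0.42, edgeR adjusted p = 1.3e-04). Mcl1, another inhibitor, was lower, with 233 and 226 UMIs in sham and 158 and 216 in overloaded MuSCs (log2 fold change -1.26, adjusted p = 8.7e-06 from edgeR). Bcl2 itself had a log2 fold change of -0.11 (edgeR adjusted p = 0.79). Per tube Mcl1 was not past the threshold (-0.30, adjusted p = 0.15 from edgeR).

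Active p53 is known to lower genes of DNA replication and mitosis through p21 and the DREAM repressor complex. All 10 tested genes of the 16 listed for this class were higher in overloaded MuSCs (7 under offsets for abundance), but all 10 had passed the filter only through the overloaded libraries, a class in which 62.9% of all genes were higher and 0 were lower. Cdk1, the kinase that drives mitosis, had 0 and 1 UMIs in sham against 85 and 114 in overloaded MuSCs. Its ratio was 102 (95% exact binomial interval 18.1 to 4051, for counting error only), from counts summed by group and scaled for depth with TMM, as for the other ratios here. Its partner Ccna2, with 1 and 0 against 70 and 84, had a ratio of 79.0 (interval 13.97 to 3139). Ccnb1, with 0 in sham against 37 and 47, was at least 14.4-fold higher after TMM scaling when sham is set to 3 counts for the group as a whole. Ccnb2 had 1 UMI in each sham library and 57 and 75 in overloaded MuSCs, a ratio of 33.8 (interval 9.19 to 282). For Birc5, with 1 count in each sham library and 42 and 60 in the overloaded libraries, the ratio was 26.2 (interval 7.06 to 219). The part of cell cycle genes in the rise of the 7 target genes was not tested.

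Transcripts used as markers of other cell types also differed between the groups. The 10 leukocyte markers in the table summed to 1 and 2 UMIs in sham and 58 and 144 in overloaded libraries (4.35 and 9.06 against 151 and 292 CPM), the most abundant being Lyz2, which like Cd74, C1qa and Adgre1 was at 0 in both sham libraries. The 8 myofibre markers, led by Acta1, summed to 390 and 199 UMIs in sham and 1195 and 1441 in overloaded libraries (1698 and 901 against 3107 and 2918 CPM), and Myh1 was at 0 in sham. All 6 tested were higher, 5 of them with enough counts in both groups (14.9% higher among all such genes) and Myh4 through the overloaded libraries only (62.9%). Without sham replicate 2, Acta1 (0.45, edgeR adjusted p = 0.22), Ckm and Pvalb were not past the threshold. The 7 mural cell markers, led by Acta2, summed to 177 and 154 UMIs and 463 and 679 UMIs (770.4 and 698 against 1204 and 1375 CPM), with Myh11 at 0 in sham. Of the 3 tested, Acta2 and Rgs5 were higher, whereas Tagln was lower (log2 fold change -0.61, edgeR adjusted p = 0.045), though not without overloaded replicate 2 or sham replicate 1. Acta2 and Tagln had enough counts in both groups (14.9% higher and 32.9% lower among all such genes). Rgs5 passed the filter through the overloaded libraries only (62.9% higher). The 8 endothelial markers, led by Tek, summed to 19 and 16 UMIs and 45 and 47 UMIs (82.7 and 72.5 against 117 and 95.2 CPM), with Cldn5 and Egfl7 at 0 in sham. Tek, the only one tested, was lower (10 and 12 against 5 and 11 UMIs, log2 fold change -1.41, edgeR adjusted p = 0.015), though not past the threshold without overloaded replicate 1 or sham replicate 2. Tek passed the filter only through the sham libraries, a class in which 75.3% of all genes were lower. The 8 fibroblast markers, led by Col3a1, summed to 940 and 867 UMIs in sham and 1221 and 1359 in overloaded libraries (4092 and 3928 against 3175 and 2752 CPM). Of the 5 tested, Col3a1, Dcn and Dpt were lower, Col1a1 stood at -0.01 on the log2 scale, and Ly6a was higher, with 1 and 0 against 22 and 41 UMIs (edgeR adjusted p = 1.1e-04). Col3a1, Dcn and Dpt had enough counts in both groups, where 32.9% of all genes were lower. Ly6a passed the filter only through the overloaded libraries (62.9% higher). The call of Col3a1 was lost without sham replicate 1, and that of Dcn without any of 3 libraries in turn. Pdgfra was at 0 in sham and at 2 and 0 in overloaded libraries. The cells were gated on YFP. Whether these transcripts came from other cell types or from the MuSCs themselves was not tested. Nor was the part of other cell types in the differences of the p53 target genes.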

How the data were processed

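The authors extracted barcodes and UMIs with UMI-tools (version 1.0.0 in the methods text, a later version among the study's key resources). They aligned reads to GRCm38 with HISAT2 (version 2.1.0) and assigned them to genes with featureCounts (version 1.6.4). UMI counts per gene were deposited, with duplicate UMIs discarded, per the study's methods. The deposited table is named as UMI-normalized, and no source used here says what that name means. Its values are whole numbers with different totals per library, so they were treated as raw counts. The annotation release and the strand setting are not given in the sources used here. All 19353 identifiers matched GENCODE M21 (GRCm38), the source of positions.

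Counts were filtered by filterByExpr (minimum count 10, minimum total 15), which kept 7228 genes, scaled by TMM and tested with the quasi-likelihood test of edgeR (version 4.0.16, R version 4.3.3) over all 4 libraries, overloaded against sham, with Benjamini-Hochberg adjustment over all genes kept. The threshold of 0.1 is that of the study. Fitted log2 fold changes carry a prior count of 0.125, and CPM are per 1000000 UMIs of the genes kept, after TMM. A count of 3 corresponded to 13.6 CPM in the smallest library and 6.08 CPM in the largest. The test was tested on simulated data first. DESeq2 (version 1.42.0) and limma-voom (limma version 3.58.1) were alternatives. Others changed the size factors, the filter, the threshold, the depth or the libraries used, left out scaling (UMIs per tube), or added offsets fitted to each library by loess on abundance. With 1 library left out, the spread comes from the other group alone, and the lone library is assumed to vary like it.

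Named genes were Trp53 and its 9 targets, Cdkn1a, Gtse1, the 5 most abundant tested genes of each list other than the marker lists (7 for other p53 targets) and every tested family relative. A few more, said in the text to be named after their values were seen (Fas, Gdf15, Ckap2, Trp53i11, Tnfrsf10b and Ak1), and tested marker genes that went with or against their list fall outside this rule. The genes and lists were chosen with earlier results of these data known. Tables were handled in Python (version 3.11.15).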

Additional observations from a re-analysis of the deposited data

How the results depend on the processing

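The count of 8 of the 10 genes past the threshold lay between 7 and 9 under the 16 alternatives, with Mdm2 lost under DESeq2 and without sham replicate 1, and Trp53 gained for UMIs per tube. Trp53 changed sign to 0.11 with library sizes alone, 0.25 under offsets for abundance and 0.79 per tube, and Cdkn1a to 0.39 and 0.26 under the latter 2. Ccng1, Zmat3, Phlda3, Eda2r, Trp53inp1, Bax and Sesn2 kept direction and threshold in all 16. Per tube, 4481 of all genes were higher and 331 lower, so that 93.1% of changed genes were higher, against 49.6% (1868 higher, 1898 lower) with TMM and 66.6% with library sizes alone. DESeq2 tested 10348 genes, against 7228 in the main test, and called 2182, 967 higher and 1215 lower. The 18 calls among other p53 targets became 11 under offsets for abundance and 11 with DESeq2, and the 4 among family relatives became 7 per tube, 2 under the offsets and 2 with DESeq2. The DESeq2 counts are over 30 of these targets and 13 relatives, against 25 and 10 in the main test. With 1 library left out, where the lone library of a group is assumed to vary like the other group, the calls ranged from 7 to 8 for Trp53 and its targets, 12 to 17 for other targets, 8 to 11 for regulators, 2 to 5 for family relatives, 4 to 6 for the Bcl2 family and 2849 to 3388 for all genes. The cause of these shifts was not tested. With the replicate number as a block, 8 of the 10 genes and 3670 of all genes passed. The numbers mark no stated pairing, and deviations of same-numbered libraries had a correlation of -0.034 across genes. Depth limits the scarce genes, above all Aen, which had 5 to 10 UMIs per library.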
